A study of Mus musculus with 165 samples.

Results

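The mammalian mitochondrial ribosome is built from proteins that are encoded in the nucleus. Described here are the genes whose symbols carry the stems Mrpl (large subunit) and Mrps (small subunit). They were followed over the differentiation of a myeloid progenitor line into macrophage-like or neutrophil-like cells. The members were the rows of the deposited normalized count table whose symbol is Mrpl or Mrps followed by a number and an optional a or b. This gave 77 of the 36255 genes in the table, 49 Mrpl and 28 Mrps. The pattern left out 6 pseudogenes and Mrps18c. Mitoribosome proteins that carry other names are described below as a companion list.

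The cells were PUER cells, a mouse progenitor line that lacks PU.1 (encoded by Spi1) and depends on IL3. They carry PU.1 joined to the hormone-binding part of the estrogen receptor, and 4-hydroxy-tamoxifen (OHT) switches this fusion protein on. All groups carry this background and derive from the one line, so the libraries do not sample different animals. Bulk RNA-Seq covered 56 groups, with 3 libraries of undifferentiated cells in IL3, 3 of cells that had spent 48 h in GCSF in place of IL3 before any OHT (GCSF 0h), 81 over 27 time points from 1h to 168h after 200 nM OHT in IL3 (IL3-OHT, the macrophage course) and 78 over 27 time points after 100 nM OHT in GCSF (GCSF-OHT, the neutrophil course). Every group had 3 libraries except GCSF-OHT 96h, 112h and 152h, with 2 each. The GCSF-OHT cells had also spent 48 h in GCSF before OHT. The cytokine, this pre-treatment and the OHT dose therefore changed together between the courses. Their parts in a difference between the courses cannot be told apart. Part of the medium was exchanged and OHT renewed at 40h, 88h and 136h, and cells were detached with trypsin at all times after 24h.

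Mitochondrial ribosomes translate the few mRNAs transcribed from mitochondrial DNA, all of which encode membrane subunits of the respiratory chain and the ATP synthase. Their proteins are made in the cytosol and imported, then assembled on ribosomal RNA of mitochondrial origin, so that production of the respiratory chain draws on both genomes. Compared with bacterial ribosomes, the mammalian mitoribosome has less RNA and more protein, including many proteins with no bacterial counterpart. In myeloid cells, neutrophil maturation is known for a decline of mitochondrial respiration, while macrophages keep active mitochondria.

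Depth was sufficient for every member. Reads assigned to genes ranged from 14600246 to 33147945 per library (median 21960878), no member had fewer than 24 reads in any library, and all 77 passed the expression filter. Marker genes fitted the labelled lineages in part. Over the shared time points 8 of 10 neutrophil markers were higher in GCSF-OHT than in IL3-OHT. Of 7 macrophage and monocyte markers, 5 rose by 168h in IL3-OHT and 6 in GCSF-OHT, and between the courses 3 were lower and 1 higher in GCSF-OHT. Csf1r, the receptor of the macrophage growth factor, had a mean normalized count of 4.91 in IL3-OHT at 168h and 16.4 in GCSF-OHT. In GCSF pre-treatment all 3 megakaryocyte markers tested fell (median -2.24, with 4 genes summing to 399 to 441 normalized counts in undifferentiated cells and 71.7 to 98 in GCSF 0h), as did 3 of 5 progenitor markers. A mast cell and basophil gene reached 378 reads in a GCSF-OHT library, and T cell markers never exceeded 3 reads. The part of such cells in the members' values was not tested. In bulk RNA, fewer cells of one type and less RNA per cell cannot be told apart.

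The members were moderately expressed genes with narrower ranges than the genes tested as a whole. Their mean normalized counts over all libraries ran from 95.3 to 2323 with a median of 614. The range of the log2 time-point means over the 56 groups had a median of 0.96 for the members, against 1.90 for all 17414 genes tested. Only 12298 of these genes had a mean normalized count of at least 10, so many had fewer counts than any member. The members were not matched to all genes in level, here or in the shares of genes called below. Normalized counts are not corrected for gene length, so they say how many reads lie behind a gene's values and give no order of transcript levels. The most counts lay behind Mrpl33 (2323), Mrps30 (1875) and Mrpl24 (1587), and the fewest behind Mrpl23 (95.3), Mrps6 (177.5) and Mrps22 (214.2). The widest log2 ranges were those of Mrps6 (2.42), Mrpl23 (2.24) and Mrps28 (2.17), and the narrowest those of Mrps24 (0.49), Mrpl19 (0.51) and Mrpl13 (0.54).

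Several members share exonic sequence with other genes, and whether the counting used strand is not given in the sources used here. On the same strand, exon bases of Mrpl53 overlap the gene model Gm42688 over 88% of their length and those of Mrps34 overlap Nme3 over 37%. On the opposite strand, those of Mrps25 overlap Nr2c2 over 69.8%, those of Mrps34 overlap Mapk8ip3 over 63.4%, those of Mrpl19 overlap Gcfc2 over 36%, those of Mrpl43 overlap Twnk over 33.4%, those of Mrps18b overlap the antisense gene Gm16279 over 30.5%, and those of Mrpl24 overlap Rrnad1 over 26.3%. Mrps6 shares 10.4% of its exon bases with Slc5a3 on the same strand. Mrpl23 has a processed pseudogene, Mrpl23-ps1, that shares 94.6% of its 31-base words with Mrpl23 and had a mean normalized count of 421, beside 95.3 for Mrpl23, so reads may be split between the pair and Mrpl23 is uncertain throughout.

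To show the sequence at which members that move together start, promoters (250 bases before to 50 after the annotated start, RefSeq, GRCm38.p6) were searched on both strands for fixed letters. Of the 77 members, 68 matched a promoter entry, and shares are given per gene beside those over the 27025 genes with an entry. The ETS core CCGGAAG was held by 25 of 68 members (36.8%, against 9.93% of all genes), the YY1 core AAGATGG by 13 (19.1%, against 7.28%) and the NRF1 core GCATGCG by 8 (11.8%, against 4.01%). The E-box CACGTG was held by 4 (5.88%, against 8.09%) and the PU-box GAGGAA, the kind of purine-rich letters PU.1 is known to bind, by 18 (26.5%, against 31.3%). The E-box letters are their own reverse complement, the NRF1 core overlaps itself on the opposite strand within the letters CGCATGCG, and the ETS core and the PU-box share the letters GGAA. Base composition was not matched between the members and all genes. Printed are the promoters of Mrpl18, the member that rose most in GCSF pre-treatment, of Mrps2, which fell most at the IL3 endpoint, and of Mrps18b, one of the largest falls at the GCSF endpoint. Only members whose entry holds a searched motif were eligible, and Mrps28, the largest fall at the GCSF endpoint, had no entry. Capitals mark the motif letters: an ETS core in Mrpl18, a PU-box in Mrps2, and in Mrps18b an NRF1 core that reads on both strands, another near the start and an ETS core on the reverse strand at the end of the window.
Mrpl18 promoter, chr17:12916042-12916341, minus strand: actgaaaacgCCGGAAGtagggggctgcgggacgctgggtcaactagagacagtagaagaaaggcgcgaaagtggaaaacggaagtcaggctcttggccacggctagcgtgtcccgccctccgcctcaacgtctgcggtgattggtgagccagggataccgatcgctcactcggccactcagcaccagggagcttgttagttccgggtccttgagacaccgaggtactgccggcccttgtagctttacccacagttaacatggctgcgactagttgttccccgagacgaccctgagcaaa
Mrps2 promoter, chr2:28467816-28468115, plus strand: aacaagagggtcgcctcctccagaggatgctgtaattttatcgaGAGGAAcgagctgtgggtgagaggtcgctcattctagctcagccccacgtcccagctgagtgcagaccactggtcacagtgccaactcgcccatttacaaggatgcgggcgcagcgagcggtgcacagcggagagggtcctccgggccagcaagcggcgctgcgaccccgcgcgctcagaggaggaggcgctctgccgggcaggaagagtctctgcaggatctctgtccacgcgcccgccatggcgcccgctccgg
Mrps18b promoter, chr17:35916391-35916690, minus strand: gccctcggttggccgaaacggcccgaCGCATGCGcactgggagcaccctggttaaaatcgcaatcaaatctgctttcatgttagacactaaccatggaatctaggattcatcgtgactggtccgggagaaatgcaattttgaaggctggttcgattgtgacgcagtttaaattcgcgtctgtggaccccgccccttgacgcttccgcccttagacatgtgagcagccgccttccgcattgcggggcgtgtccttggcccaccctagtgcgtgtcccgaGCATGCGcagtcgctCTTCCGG

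A match gives the presence of letters in this window and was not measured as a bound site. The RefSeq starts used for the windows differ in part from the gene positions given for members. By those positions the whole Mrpl18 window lies inside the gene, and the whole Mrps18b window lies upstream of it.

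As a group the members followed a shallow course in both IL3-OHT and GCSF-OHT. The median over members of the log2 ratio to the undifferentiated mean, taken in each library, stood at 0.0056 ± 0.0079 (SD, n = 3) in undifferentiated cells. It was 0.23 ± 0.052 after GCSF pre-treatment. In IL3-OHT it was -0.0001 ± 0.028 at 1h, 0.22 ± 0.047 at 4h and 0.39 ± 0.026 at 8h, the highest of all groups, and 0.14 ± 0.047 at 24h. The later IL3 values lay between 0.23 ± 0.018 at 48h and -0.086 ± 0.022 at 120h and ended at 0.0035 ± 0.042. In GCSF-OHT the median was 0.24 ± 0.043 at 4h, -0.00093 ± 0.011 at 16h and 0.092 ± 0.038 at 72h, and had its lowest value, -0.27 ± 0.07, at 136h. At 168h it was -0.13 ± 0.017, below every undifferentiated library.

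The share of reads taken by the members does not use the deposited scaling, and it was also highest at 8h in IL3-OHT. The 77 genes took 0.212% ± 0.0014 (SD, n = 3) of the reads on genes in undifferentiated cells, 0.294% ± 0.0086 in GCSF 0h and 0.299% ± 0.0054 in IL3-OHT at 8h. The lowest shares were 0.187% ± 0.0019 in IL3-OHT at 136h and 0.188% ± 0.0066 in GCSF-OHT at 160h. At 168h the share was 0.207% ± 0.0044 in IL3-OHT and 0.207% ± 0.0038 in GCSF-OHT, both close to the undifferentiated value.

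**Figure D1:**
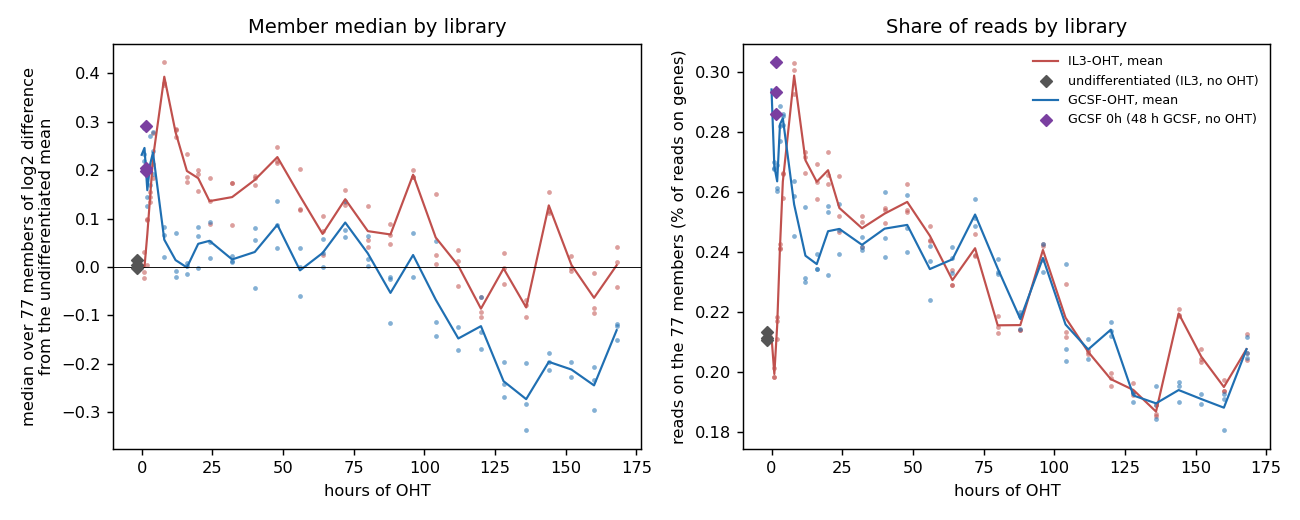
Median log2 ratio of the 77 members to their undifferentiated means (y axis) against hours after OHT (x axis), with 1 point per library and lines through the time-point means. IL3-OHT peaks at 0.39 at 8h, and GCSF-OHT starts near 0.23 and falls to -0.27 at 136h.

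Most members shared this course. The Pearson correlation of a member's 56 time-point means with the median profile of the other members had a median of 0.63, and 50 of 77 members had a correlation above 0.5. The time points share one scaling and one line, so these values are a description. Mrps5, a small-subunit core protein, was nearest to the common profile (r = 0.96), followed by Mrpl12 (0.93) and Mrpl15 (0.93). A correlation below 0 was found for 5 members, the lowest being Mrpl33 (-0.52), Mrpl14 (-0.39) and Mrpl24 (-0.22).

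A member was called changed over a course when limma's F test passed an adjusted p of 0.05 and at least 1 time point differed from the start by more than 0.58 on the log2 scale. This held for 33 of 77 members in IL3-OHT, against 69.7% of all genes tested, and for 36 of 77 in GCSF-OHT, against 47.7%. On the F test alone all 77 passed in both courses, against 86% and 76.4% of all genes. By both criteria 20 members were called in both courses, 49 in at least one and 28 in neither. Of the 77, 35 had their highest IL3 mean at 8h, 24 had their lowest IL3 mean at 136h, and 24 had their lowest GCSF mean at 136h.

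**Figure D2:**
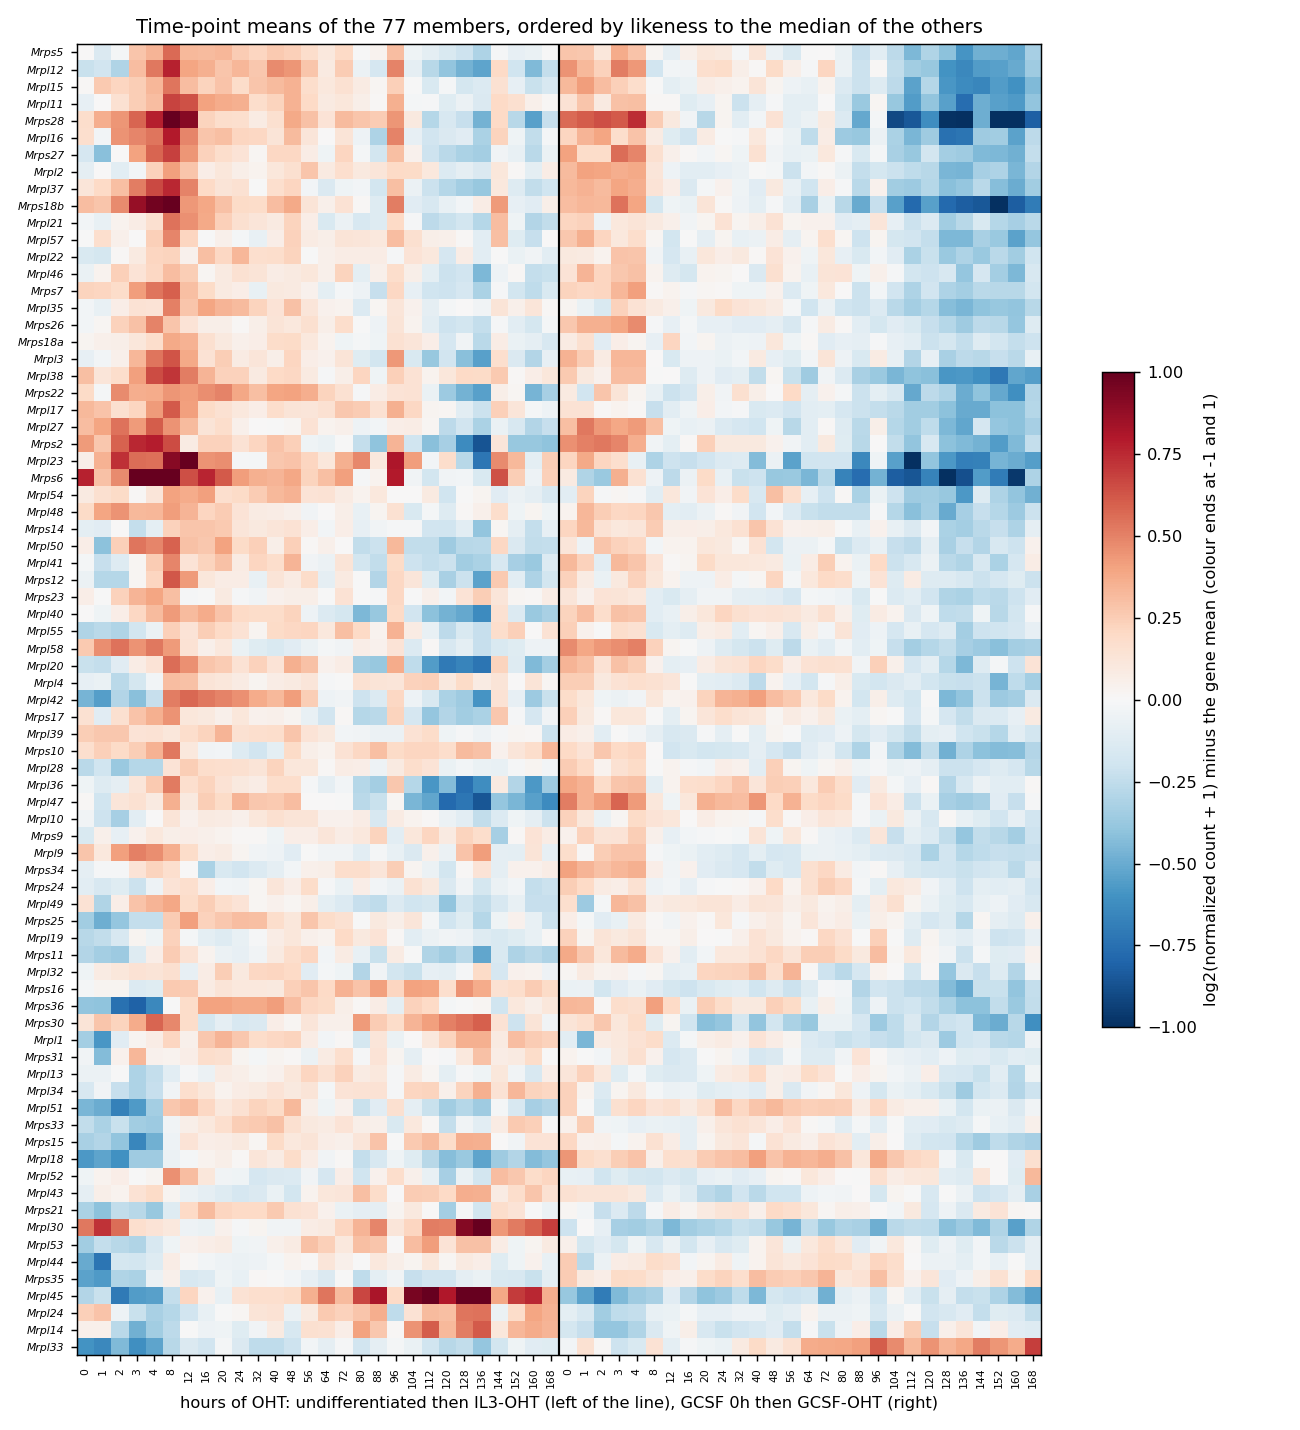
Time-point means of log2(normalized count + 1) minus each member's own mean (colour, log2 units, ending at -1 and 1) for the 77 members (rows, ordered by likeness to the others) at every time of IL3-OHT (left) and GCSF-OHT (right). The rise at 8h in IL3-OHT and the fall from 88h on in GCSF-OHT run across most rows, and Mrpl14, Mrpl24, Mrpl33 and Mrpl45 in the bottom rows depart from them.

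GCSF pre-treatment compares cells after 48 h in GCSF in place of IL3 with undifferentiated cells, before PU.1 was switched on. The study uses the same undifferentiated libraries for the time before GCSF and for the IL3 start. The addition of GCSF, the removal of IL3 and the 48 h of culture therefore changed together, and their parts cannot be told apart. Most members were higher after the pre-treatment, by small amounts. The log2 fold change was above 0 for 59 of 77 members, with a median of 0.24 against -0.09 for all genes tested. At an adjusted p below 0.05 and a change above 0.58, 8 members rose, against 13.0% of all genes, and 2 fell, against 20.7%. On the adjusted p alone, 46 were higher (25.3% of all genes) and 7 lower (31.9%). Of the Mrpl genes 5 rose and 1 fell, and of the Mrps genes 3 rose and 1 fell. These counts depend on the scaling, since total normalized counts were lower in GCSF 0h (median 19488259) than in undifferentiated cells (23264781). Scaled to total reads on genes in each library, 29 members rose and none fell, while the calls over all genes turned from 2261 higher and 3600 lower to 3711 and 2712, and the median of all genes moved from -0.09 to 0.12. The difference between the member median and the all-gene median was 0.33 under the deposited scaling and 0.38 under total reads.

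Mrpl18 (ENSMUSG00000057388, chr17:12911349-12916345, minus strand), a protein of the central protuberance of the large subunit, rose most. Its normalized counts were 689.6, 676 and 644 in undifferentiated cells and 1236, 1380.3 and 1448 in GCSF 0h. Every GCSF library lay far above every undifferentiated one, with a log2 fold change of 1.01 ± 0.055 (SE, adjusted p = 3.03e-34). Mrpl18 shares 10.1% of its exon bases with Tcp1 on the other strand. Mrps35 (ENSMUSG00000040112, chr6:147042764-147073991, plus strand), a small-subunit protein without a bacterial counterpart, went from 288, 274 and 279 to 453, 475 and 529, a log2 fold change of 0.79 ± 0.087 (adjusted p = 2.25e-14). Mrpl44 (ENSMUSG00000026248, chr1:79776018-79781445, plus strand), a large-subunit protein with a ribonuclease III-like fold, went from 484, 493 and 467 to 826, 794 and 818 (0.76 ± 0.06, adjusted p = 2.18e-22). The groups did not overlap for either gene.

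Mrps36 (ENSMUSG00000061474, chr13:100735955-100744659, minus strand), named as a ribosomal protein but known as a component of the oxoglutarate dehydrogenase complex, had counts of 225.1, 213.8 and 226.9 before and 372, 375 and 359 after GCSF, a rise of 0.73 ± 0.10 (adjusted p = 8.21e-10). Mrpl51, another large-subunit member, rose from 653, 687 and 728 to 1081, 1068 and 1185 (0.69 ± 0.063, adjusted p = 1.39e-18). Both genes were higher in all GCSF libraries. Mrpl12 (ENSMUSG00000039640, chr11:120484613-120489065, plus strand), which forms the stalk that recruits translation factors and is also reported to bind the mitochondrial RNA polymerase, went from 1113, 1181 and 1017 to 1690.2, 1675 and 1929 (0.68 ± 0.072, adjusted p = 4.86e-15). The GCSF library of replicate 3 was the highest, and without replicate 3 the log2 fold change was 0.55, under the threshold.

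Against this trend, Mrpl30 (ENSMUSG00000026087, chr1:37890477-37898535, plus strand), a large-subunit core protein, fell from 1225, 1177 and 1195 to 693, 716 and 753, a log2 fold change of -0.73 ± 0.069 (adjusted p = 9.08e-18). Mrps6 (ENSMUSG00000039680, chr16:92058270-92112227, plus strand), a small-subunit core protein, fell from 285, 309 and 245.8 to 184.8, 157.6 and 178.9 (-0.68 ± 0.14, adjusted p = 5.93e-06). The groups did not overlap for either gene, but both calls were lost under total-read scaling, at -0.47 for Mrpl30 and -0.42 for Mrps6, and that of Mrps6 also without replicate 2, at -0.54. Mrps12, the decoding-site protein, was higher by 0.30 ± 0.096 (adjusted p = 0.00533), under the fold threshold.

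The IL3-OHT course asks how the members behaved as PU.1 was switched on toward macrophage-like cells. They were higher early and, as a group, back at the start by the end. At 8h, 15 members were called higher (against 11.8% of all genes) and none lower (17.9%). By limma, 64 members were above and 3 below at an unadjusted p under 0.05, and the other tools were not run on single time points. The median log2 fold change was 0.38, and 72 of 77 members were above 0. The 15 were Mrpl12, Mrpl42, Mrps28, Mrpl23, Mrps27, Mrpl20, Mrpl11, Mrpl51, Mrps18b, Mrpl3, Mrps12, Mrpl37, Mrpl16, Mrps25 and Mrps35.

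At 8h Mrpl12 reached 2360.2, 2058 and 2171, against 1113, 1181 and 1017 at the start, with a log2 fold change of 0.99 ± 0.072 (adjusted p = 1e-24). Mrps28 (ENSMUSG00000040269, chr3:8802146-8923918, minus strand), a small-subunit protein, reached 491, 574 and 505 from 281, 246.5 and 298 (0.93 ± 0.12, adjusted p = 7.15e-11). For both, no library at 8h overlapped the start. Mrpl11, at the base of the stalk, rose by 0.76 ± 0.089 (adjusted p = 4.36e-13) and Mrps12 by 0.68 ± 0.096 (adjusted p = 5.52e-10). Mrps18b, one of the paralogs of a bacterial small-subunit protein, rose by 0.72, whereas its paralog Mrps18a, which is placed in the large subunit of the assembled ribosome, was at 0.35 ± 0.076 (adjusted p = 3e-05).

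Over windows of the course the count shrank. Averaged over 8h to 24h, 5 members were called higher (against 10.6%) and none lower (18.7%), with a member median of 0.25. The called members were Mrpl42 (0.98), Mrpl51 (0.67), Mrps36 (0.67), Mrpl12 (0.65) and Mrps25 (0.64). By edgeR the higher count was 9 and by DESeq2 5, and neither called any lower past the fold threshold. Limma had 5 members below 0 at an unadjusted p under 0.05. On the adjusted p alone 4 were lower by limma, edgeR and DESeq2 alike. Over 32h to 72h, 5 were higher (against 12.3%) and none lower (17.9%), with a median of 0.14. Limma had 14 lower at an unadjusted p under 0.05, and edgeR and DESeq2 called none lower past the fold threshold. On the adjusted p alone 14 were lower by limma, 14 by DESeq2 and 13 by edgeR. Over 80h to 136h, 3 were higher (12.0%) and 2 lower (19.9%), with a median of -0.02. At 136h, where 24 members had their lowest IL3 mean, 4 were higher (13.2%) and 8 lower (20.7%).

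At the IL3 endpoint, 168h against undifferentiated cells, 1 member was called higher, against 10.2% of all genes, and 2 lower, against 15.2%, so that members past the fold threshold were fewer in share than over all genes. On the adjusted p alone 24 members were higher (23.7% of all genes) and 24 lower (27.2%), and the median was 0.01 against -0.03 for all genes. The riser was Mrpl45 (ENSMUSG00000018882, chr11:97315716-97329920, plus strand), a protein near the exit of the peptide tunnel that faces the inner membrane. Its counts were 895, 828 and 839 at the start, 2102, 2159 and 2028 at 136h and 1318, 1330.3 and 1385 at 168h. All IL3 libraries at these times exceeded the start, and the log2 fold changes were 1.29 ± 0.06 at 136h and 0.65 ± 0.06 at 168h (adjusted p = 3.59e-18).

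Mrps2 (ENSMUSG00000035772, chr2:28468066-28471178, plus strand), a conserved small-subunit protein, fell from 741, 813 and 690.1 to 317, 299 and 297 at 136h and 417, 389.8 and 449.6 at 168h. Its fall was -1.29 ± 0.073 at 136h and -0.83 ± 0.073 at the endpoint (adjusted p = 1.87e-19), with no overlap at either time. Mrpl47 (ENSMUSG00000037531, chr3:32725397-32737605, minus strand), near the tunnel exit, fell from 236.8, 246.5 and 218.6 to 154.4, 162.9 and 132.9 (-0.64 ± 0.11, adjusted p = 5.54e-07), also without overlap. Leaving out replicate 3 raised the count of called risers from 1 to 2.

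The GCSF-OHT course asks the same on the way to neutrophil-like cells, from the level at GCSF 0h. After OHT most members lay below GCSF 0h, by little up to 72h and by more at most times from 88h on. Over 8h to 24h no member passed the fold threshold (background 6.68% higher and 3.30% lower). By limma, 50 members were lower and 1 higher at an unadjusted p under 0.05. Past the fold threshold edgeR and DESeq2 also called none in either direction. The median was -0.19. On the adjusted p alone 49 were lower by limma, against 20.0% of all genes, and 49 by each of edgeR and DESeq2. Over 32h to 72h, 1 member, Mrpl58, was called lower (-0.63 ± 0.073, adjusted p = 3.05e-13, background 5.41% lower and 8.08% higher), with a member median of -0.16. Over 80h to 136h, 14 were lower, against 10.9% of all genes, with a median of -0.33, and none was higher, against 10.6%. Limma had 3 higher at an unadjusted p under 0.05, and edgeR and DESeq2 called none higher past the fold threshold. On the adjusted p alone 3 were higher by limma, edgeR and DESeq2 alike.

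At single times the number called lower was 3 at 80h (7.38% of all genes) and 10 at 88h (8.36%). At 96h it was 2 (7.71%), with 1 member higher (7.55%) and a median of -0.19, close to the values before 80h. The number was 12 at 104h (10.3%), 19 at 112h (9.13%), 14 at 120h (9.29%), 26 at 128h (12.4%), 29 at 136h (12.5%), 21 at 144h (14.1%), 22 at 152h (13.3%) and 25 at 160h (13.9%). At 136h the background of higher calls was also 12.5%, and 74 of 77 members lay below GCSF 0h, with a median of -0.49. The counts at 96h, 112h and 152h rest on 2 libraries each. At the endpoint, 168h against GCSF 0h, 17 members fell, against 12.6% of all genes, and 1 rose, against 12.1%. On the adjusted p alone 63 were lower (25.7% of all genes) and 2 higher (24.8%). The median was -0.38 against 0.00 for all genes, and 72 of 77 members were below 0. Of the Mrpl genes 10 fell and 1 rose, and of the Mrps genes 7 fell. Under total-read scaling 35 fell and none rose, with calls over all genes of 1549 higher and 3243 lower in place of 2110 and 2200. The difference between the member and all-gene medians was then -0.39.

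**Figure D3:**
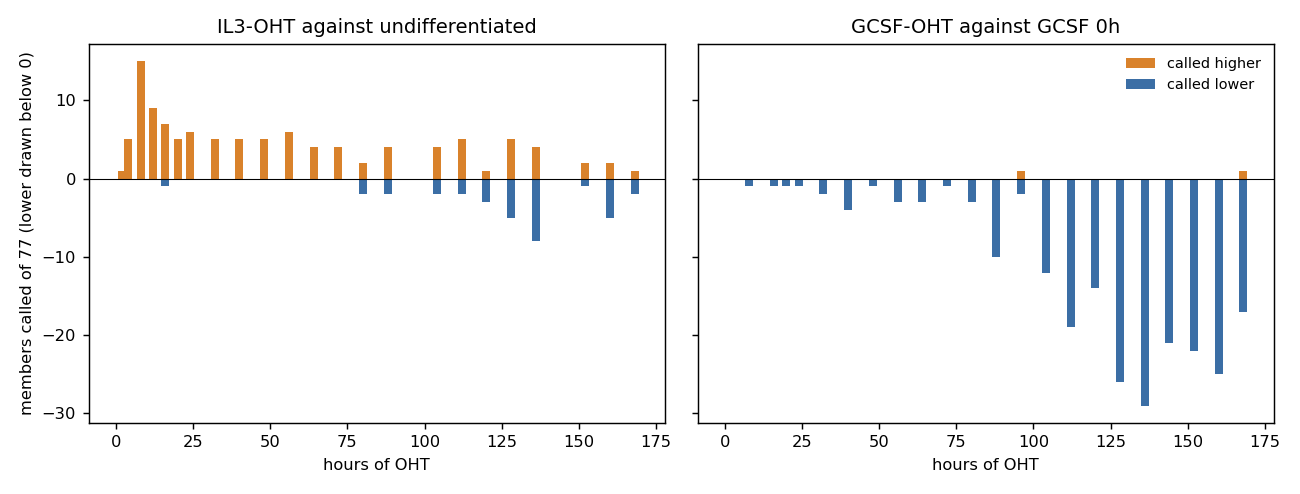
Number of the 77 members called higher (above 0) and lower (below 0) than the start of each course at each time point, with hours after OHT on the x axis. IL3-OHT reaches 15 higher at 8h, and GCSF-OHT reaches 29 lower at 136h.

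Mrps28 fell most. Its counts were 324, 371 and 384 in GCSF 0h and 138.7, 130.4 and 141.2 at 168h, so that every late library was below every early one (log2 fold change -1.39 ± 0.12, adjusted p = 4.26e-19). Mrps18b (ENSMUSG00000024436, chr17:35910379-35916389, minus strand) went from 847, 755 and 830.4 to 398, 386 and 423 (-1.01 ± 0.081, adjusted p = 1.52e-21), and Mrps18a was at -0.29 ± 0.076, under the fold threshold. Mrpl12 returned from 1690.2, 1675 and 1929 to 940.5, 1078 and 1012 (-0.80 ± 0.072, adjusted p = 7.21e-19), with its lowest time-point mean at 136h, where the libraries had 805, 798 and 869. These 168h counts overlapped those of undifferentiated cells.

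Mrpl38 (ENSMUSG00000020775, chr11:116131817-116138868, minus strand), a large-subunit protein without a bacterial counterpart, went from 899, 981 and 999 to 544, 533 and 558 (-0.81 ± 0.083, adjusted p = 9.71e-16). Mrpl58 (ENSMUSG00000018858, chr11:115403752-115412674, plus strand), which releases peptides from stalled mitoribosomes, went from 336, 382 and 353 to 176.1, 211.2 and 229.3 (-0.80 ± 0.095, adjusted p = 9.65e-13). Mrpl15 (ENSMUSG00000033845, chr1:4773206-4785739, minus strand), a large-subunit core protein, went from 879.8, 915 and 869 to 481, 554 and 529 (-0.77 ± 0.066, adjusted p = 4.69e-20). None of these groups overlapped. The other members that fell, by -0.58 to -0.76, were Mrpl23, Mrps30, Mrps2, Mrpl37, Mrpl57, Mrps27, Mrpl27, Mrps5, Mrpl2, Mrpl4 and Mrps36. Mrps30 carries a small-subunit name but lies in the large subunit of the assembled ribosome.

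The exception was Mrpl33 (ENSMUSG00000106918, chr5:31596935-31664384, plus strand), a short large-subunit protein. Its counts rose from 2244, 2228 and 2243 in GCSF 0h to 3667, 3736 and 3631 at 168h, with very little spread within either group (0.72 ± 0.075, adjusted p = 3.99e-15). Under total-read scaling its change was 0.54, under the threshold.

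**Figure D4:**
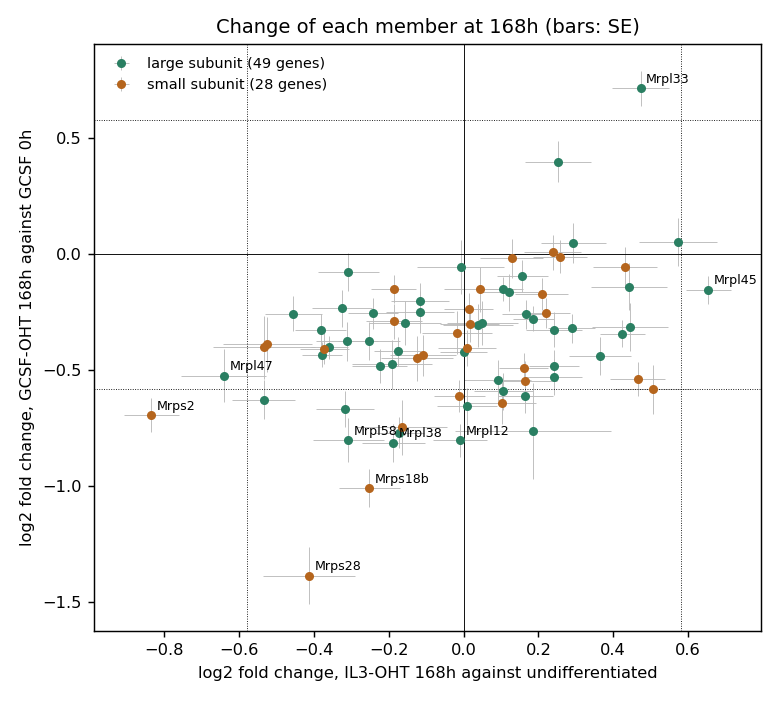
Log2 fold change at 168h of each member in IL3-OHT (x axis, against undifferentiated cells) and in GCSF-OHT (y axis, against GCSF 0h), with 1 point per member and dotted lines at the threshold of 0.58. Nearly all points lie below 0 on the y axis while they scatter on both sides of 0 on the x axis, and Mrpl33 is the point above the upper line.

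Set against undifferentiated cells, the libraries used as the start of IL3-OHT, the GCSF endpoint had 3 members higher, against 15.5% of all genes, and 11 lower, against 23.6%. The median was -0.13 against -0.11 for all genes. Mrpl33 (1.29 ± 0.075), Mrpl18 (0.73 ± 0.055) and Mrps35 (0.73 ± 0.087) were the 3 above the undifferentiated level by the adjusted p and fold thresholds. Mrps18b (-1.01 ± 0.081) and Mrps28 (-1.0 ± 0.12) ended below it.

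The direct comparison of GCSF-OHT with IL3-OHT, averaged over 25 shared time points without 96h and 144h, asks how the courses differed in level. Averaged in this way, members differed little. At single times the courses lay apart in both directions. The member median against undifferentiated cells was 0.25 in GCSF-OHT and -0.0001 in IL3-OHT at 1h, and 0.056 and 0.39 at 8h. The median of the averaged differences was -0.11 against -0.06 for all genes. Of the members 4 were lower, against 15.1% of all genes, and none was higher, against 9.34%. By limma 16 were higher at an unadjusted p under 0.05, and neither edgeR nor DESeq2 called one higher past the fold threshold. On the adjusted p alone limma had 54 lower (45.3% of all genes) and 16 higher (35.2%). By the same rule edgeR had 48 lower and 19 higher, and DESeq2 55 and 16. Under total-read scaling this balance turned, with 31 lower and 35 higher on the adjusted p alone and a member median of 0.016 against 0.039 for all genes.

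The lowest, median and highest counts of Mrps6 were 126.4, 206.4 and 411 over 75 IL3-OHT libraries and 62.1, 127.7 and 221.4 over 73 GCSF-OHT libraries. The ranges overlapped, with a mean log2 difference of -0.76 ± 0.027 (adjusted p = 2.01e-51). For Mrpl30 they were 752, 946 and 1787 in IL3-OHT and 556, 666 and 863 in GCSF-OHT (-0.62 ± 0.014, adjusted p = 3.31e-72), and for Mrpl45 614, 1290.2 and 2246 and 621, 861 and 1219 (-0.61 ± 0.012, adjusted p = 6.95e-78). Mrpl30 and Mrps6 were already lower after the pre-treatment, whereas Mrpl45 was at -0.086 ± 0.06 there (adjusted p = 0.222). The calls of Mrpl30 and Mrpl45 were lost under total-read scaling, at -0.49 and -0.48.

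Mrpl23 was the remaining member, at 36.3, 109.5 and 218.3 in IL3-OHT and 24.5, 72.6 and 139.2 in GCSF-OHT (-0.58 ± 0.042, adjusted p = 1.16e-25). This call was the least stable. The value was -0.57 by edgeR, -0.46 under total-read scaling, -0.54 without replicate 1 and -0.47 when the counts of Mrpl23 and its pseudogene were summed, each under the threshold.

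**Figure D5:**
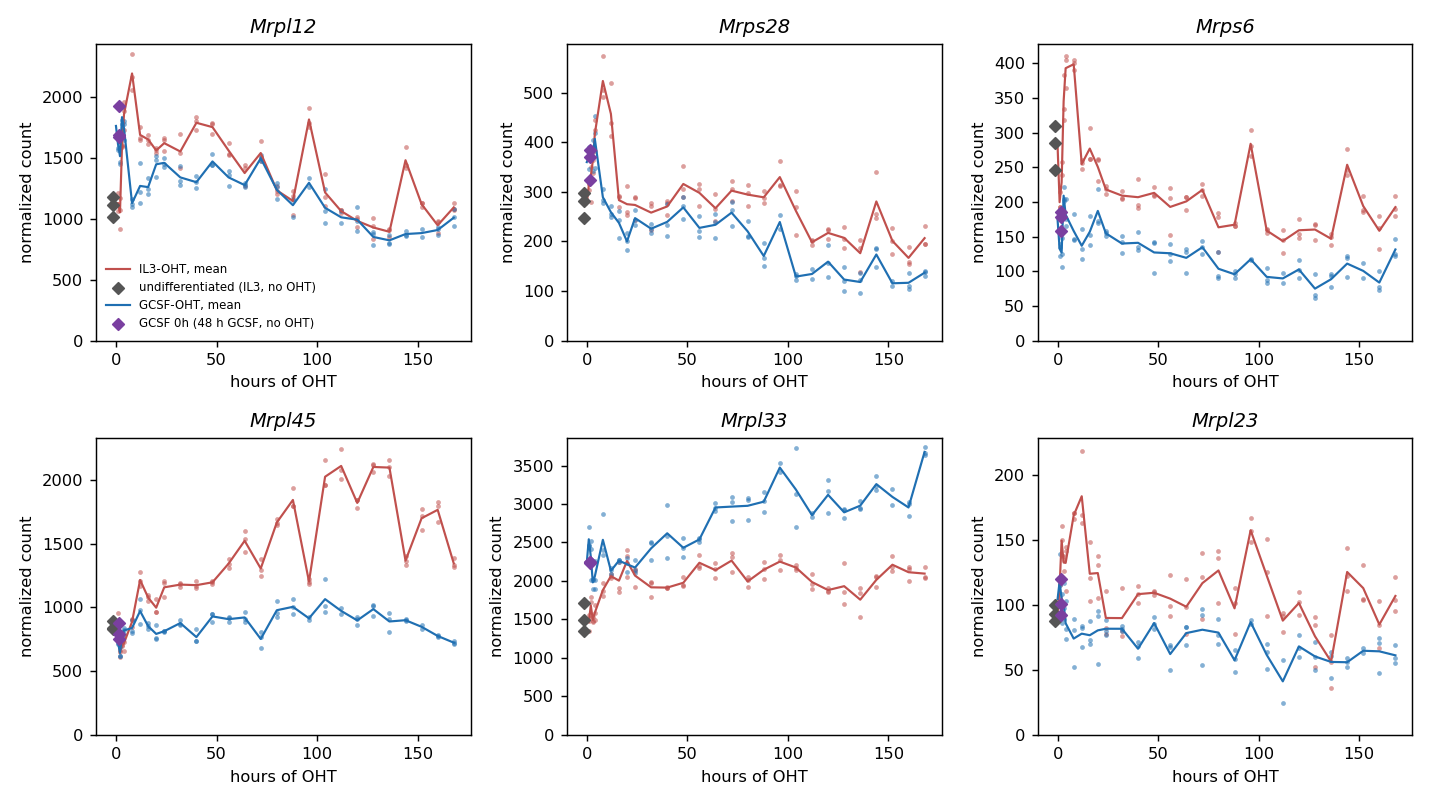
Normalized counts (y axis, linear) of Mrpl12, Mrps28, Mrps6, Mrpl45, Mrpl33 and Mrpl23 against hours after OHT in IL3-OHT and GCSF-OHT, with points for libraries, diamonds for the starts and lines through the time-point means, 96h and 144h included. Mrpl12 and Mrps28 are highest at 8h in IL3-OHT and lower late in GCSF-OHT, Mrpl45 is highest between 104h and 136h in IL3-OHT, and Mrpl33 ends higher in GCSF-OHT.

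The change with OHT itself was compared between the courses as an interaction at 168h, the GCSF change from GCSF 0h minus the IL3 change from undifferentiated cells. Of 77, 25 were lower, against 11.3% of all genes, and none was higher, against 14.5%. Limma had 1 higher at an unadjusted p under 0.05, and edgeR and DESeq2 called none higher past the fold threshold. On the adjusted p alone DESeq2 had 1 higher, and limma and edgeR none. The median was -0.33 against 0.03 for all genes. The lower calls were 16 Mrpl and 9 Mrps genes. Since the GCSF arm starts at GCSF 0h, the level reached in pre-treatment enters every one of these values.

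Mrps36 had the largest difference, at -1.09 ± 0.15 (adjusted p = 2.83e-10). Its counts at 168h were 349, 279 and 322 in IL3-OHT, above the start, and 232.2, 254.3 and 251.6 in GCSF-OHT, below GCSF 0h. Mrps15, named after its value was seen, went from 587, 636 and 567 to 861, 815 and 796 in IL3 and from 808, 857 and 926 to 551, 606 and 628 in GCSF (-1.0 ± 0.10, adjusted p = 3.25e-15). For both genes every IL3 library was above its start and every GCSF library below its own. For Mrps28 the interaction was -0.97 ± 0.17, with counts of 230.4, 194.9 and 194.2 in IL3-OHT at 168h. Mrpl45 (-0.81 ± 0.085), Mrpl12 (-0.79 ± 0.10), Mrpl44 (-0.77 ± 0.084), Mrps18b (-0.76 ± 0.12) and Mrpl11 (-0.63 ± 0.13) were also called lower.

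A few members stood outside the common course. Mrpl14, a large-subunit core protein, was at -0.23 ± 0.087 after GCSF and 0.048 ± 0.087 at the GCSF endpoint, and Mrpl24, another core protein, at -0.34 ± 0.053 and -0.15 ± 0.053. None of these values passed the fold threshold. Both share exon bases with an opposite-strand gene, Mrpl14 over 11.2% and Mrpl24 over 26.3%. The most even members, Mrps24, Mrpl19 and Mrpl13, were at -0.43, -0.32 and -0.17 at the GCSF endpoint.

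Between consecutive time points members moved in small steps. Over 25 IL3 steps, 8 member calls were higher and 4 lower, in 6 steps, which is 0.416% and 0.208% of members times steps against 1.76% and 1.88% over all genes. Over 27 GCSF steps, 3 were higher and 2 lower, in 5 steps, 0.144% and 0.0962% against 0.935% and 0.870%. The IL3 rise appeared in steps: Mrpl50 between 1h and 2h (0.65 ± 0.082), Mrpl12 (0.61 ± 0.072) and Mrps6 (0.60 ± 0.14) between 2h and 3h, and Mrpl42 (0.74 ± 0.075), Mrps36 (0.64 ± 0.10) and Mrpl51 (0.61 ± 0.063) between 4h and 8h. In GCSF-OHT, Mrpl12 fell by 0.63 ± 0.072 between 4h and 8h and Mrps28 by 0.88 ± 0.14 between 96h and 104h, where the 96h group had 2 libraries.

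IL3-OHT 96h and 144h, the first times after the exchanges of medium at 88h and 136h, stood apart from their neighbours and were left out of the tests above, while the levels, ranges and profile correlations over 56 groups and the plots include them. At 96h 7 members were higher than the mean of 88h and 104h, against 9.34% of all genes, and 1 was lower, against 8.18%. At 144h 5 were higher than the mean of 136h and 152h, against 8.58%, and none lower, against 6.77%. Mrps2 (0.64 ± 0.063 and 0.74 ± 0.063), Mrpl20 (0.69 ± 0.066 and 0.66 ± 0.066) and Mrps6 (0.80 ± 0.12 and 0.58 ± 0.12) were higher at both. At 96h Mrpl45 decreased by 0.68 ± 0.051 on the log2 scale. The part of the renewed OHT or medium was not tested. The 6 libraries at 120h carry another library prefix, and no member there was called against its neighbours (0.913% of all genes higher and 0.815% lower in IL3-OHT, 0.902% and 1.14% in GCSF-OHT). Unadjusted p-values under 0.05 by limma numbered 4 higher and 23 lower in IL3-OHT and 25 higher and 7 lower in GCSF-OHT. By the adjusted p and fold thresholds edgeR and DESeq2 also called none.

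Companion lists place the members beside the rest of mitochondrial gene expression. Their counts are read against the shares of all genes called, which were 13.0% higher and 20.7% lower in pre-treatment, 10.2% and 15.2% at the IL3 endpoint and 12.1% and 12.6% at the GCSF endpoint. Of 7 genes measured in the list of mitoribosome proteins outside the naming pattern, which includes the insertase Oxa1l, none was called after GCSF pre-treatment (median 0.14). At the GCSF endpoint 1 of them fell, Oxa1l (-0.66 ± 0.062, adjusted p = 1.13e-17). It receives nascent chains at the inner membrane and is not itself a ribosomal protein. The other genes of the list had values of -0.029 for Dap3, -0.29 for Chchd1, -0.34 for Aurkaip1, -0.53 for Ptcd3, -0.37 for Gadd45gip1 and -0.038 for Mrps18c. Of 11 mitochondrial translation factors, 3 rose in pre-treatment: Mtfmt, which formylates the initiator tRNA (1.08), and the release factors Mtrf1 (0.94) and Mtrf1l (0.70). At the GCSF endpoint 1 fell, the elongation factor Tufm (-0.61).

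Of 17 mitochondrial aminoacyl-tRNA synthetases, 6 rose and none fell in pre-treatment (median 0.39), with Cars2 (0.92), Pars2 (0.92) and Sars2 (0.72) foremost, and 1 rose and 4 fell at the GCSF endpoint (median -0.36), against 1 and 2 at the IL3 endpoint (median 0.14). Of 25 assembly and ribosomal RNA modification genes, 2 rose and 1 fell in pre-treatment, where the helicase Ddx28 fell by 1.37 and the methyltransferase Tfb1m was at 0.66, and 5 fell at each of the GCSF endpoint (median -0.30) and the IL3 endpoint (median -0.30). Over 80h to 136h 9 of the 25 fell in IL3-OHT (median -0.31, against 19.9% of all genes) and 5 in GCSF-OHT (median -0.33, against 10.9%). Of 21 genes of mitochondrial DNA maintenance and transcription, 3 rose in pre-treatment, among them Tfam, which packages mitochondrial DNA (0.72), and 5 fell and 1 rose at the GCSF endpoint (median -0.40), against 3 and 2 at the IL3 endpoint (median -0.01).

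Products and partners of the mitoribosome were counted in the same way. Of 13 mitochondrially encoded mRNAs, 1 rose in pre-treatment (median 0.19), 5 fell at the IL3 endpoint (median -0.23, with mt-Nd3 at -1.02 and mt-Cytb at -1.0) and 4 fell at the GCSF endpoint (median -0.34). Over 80h to 136h more of them were called lower, 8 in IL3-OHT (median -0.87, against 19.9% of all genes) and 11 in GCSF-OHT (median -0.74, against 10.9%). Of 72 nuclear-encoded respiratory chain subunits, 7 rose and 2 fell in pre-treatment (median 0.24), 2 rose at the IL3 endpoint (median 0.11) and 13 fell at the GCSF endpoint (median -0.30), led by Atp5g1 (-1.21) and Atp5g2 (-1.17), which encode the same ring subunit of the ATP synthase. Of 14 import and chaperone genes, 2 fell in pre-treatment, the matrix chaperone Hspa9 (-1.29) and the import receptor Tomm20 (-0.71), and 4 fell at the GCSF endpoint (median -0.46). Of 9 regulators of nuclear-encoded mitochondrial genes, the coactivator Ppargc1b rose in pre-treatment (1.63) and fell at the GCSF endpoint (-1.0). Myc fell at both endpoints (-1.01 in IL3 and -0.85 in GCSF).

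Cytosolic ribosomal protein and cell cycle genes were also called in these comparisons, in some with and in some against the direction of the members. In pre-treatment 65 of 81 cytosolic ribosomal protein genes fell and 1 rose (median -0.69), opposite in sign to the members, while 15 of 16 cell cycle genes rose (median 1.56). Over 8h to 24h of IL3-OHT 28 of the cytosolic genes fell (median -0.48, against 18.7% of all genes), where the member median was 0.25. At the GCSF endpoint 28 of the cytosolic genes fell and 1 rose (median -0.51) and 10 of the cell cycle genes fell (median -0.63). At the IL3 endpoint 3 of the cytosolic genes rose (median 0.13) and 4 cell cycle genes fell. Between GCSF-OHT and IL3-OHT 69 of the cytosolic genes were lower (against 15.1% of all genes) and all 16 cell cycle genes higher (9.34%). In the interaction at 168h 53 cytosolic genes were lower, as were 16 of 72 respiratory chain subunits and 25 of 77 members, against 11.3% of all genes. The part of proliferation in the members' values was not tested.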

How the data were processed

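RNA of PUER cells was sequenced and quantified by the authors with Salmon on GRCm38 (mm10), with no version given in the sources used here. The values are the deposited table of counts divided by DESeq2 size factors, a signal per gene per library that was used as deposited. These values were whole multiples of a unit per library in 100% of non-zero cases (tolerance 1e-06), so reads could be recovered. In 7 libraries the check of that unit could not be applied. The value of 1 read was 0.652 to 1.84 normalized counts, so the 3 reads taken as the limit of detection correspond to 1.96 to 5.51.

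Members and lists were chosen with earlier results of these data known. Tested were the 17414 genes that reached 5 normalized counts in any library. log2(normalized count + 1) was fitted with limma 3.58.1 in R 4.3.3 (eBayes with a trend, 8.12 prior and 105 residual degrees of freedom) over 159 libraries, 1 mean per group and no covariate. The 6 IL3-OHT libraries at 96h and 144h were left out, as in the study, and entered a fit over all libraries for the comparison with their neighbours. A gene was called at a Benjamini-Hochberg adjusted p under 0.05 over all genes tested and a log2 fold change beyond 0.58. Fold changes are on the log2(value + 1) scale, which understates those of low genes. The p-values measure the spread between replicate wells of one line. As alternatives, edgeR 4.0.16 (quasi-likelihood, TMM) and DESeq2 1.42.0 were run on the recovered reads, and scaling to total reads on genes, an upper-quartile scaling, a pseudocount of 5, no filter, the replicate number as a block and leaving out each replicate were tried. Mrpl23 summed with its pseudogene was added after the data were seen. The fit was tested on simulated data.

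Named were, in each of GCSF pre-treatment, both endpoints and GCSF against IL3, up to 6 called members with the largest rise and 6 with the largest fall, then 3 at each end of range, mean count and likeness to the other members, and Mrpl11, Mrpl12, Mrpl58, Mrps12, Mrps18a, Mrps18b and Mrps36 for their roles. Of each companion list up to 3 called genes were named per comparison. Other names were chosen after their values were seen. Genome positions come from an annotation of GRCm38, matched by symbol. The titles of the GCSF 0h libraries mention OHT, but their treatment field and the study's methods place them before it.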

Additional observations from a re-analysis of the deposited data

Results flagged for a closer look

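The change with OHT at 168h differed between GCSF-OHT and IL3-OHT for many members. This held by the test of the difference itself (limma, adjusted p under 0.05 and a difference beyond 0.58 on the log2 scale). The courses differ in cytokine, in the 48 h of GCSF before OHT and in OHT dose. For 25 members the change in GCSF-OHT was lower than the change in IL3-OHT, against 11.3% of all genes. The GCSF change starts at GCSF 0h, so the level reached in pre-treatment enters these values. In level, averaged over the shared time points, 4 members were called lower in GCSF-OHT, against 15.1% of all genes. Among the named members the differences were -1.09 for Mrps36, -0.97 for Mrps28, -0.95 for Mrpl23, -0.81 for Mrpl45, -0.79 for Mrpl12, -0.77 for Mrpl44, -0.76 for Mrps18b, -0.63 for Mrpl11 and -0.63 for Mrpl38. The remaining named members were closer to the threshold, with -0.61 for Mrpl19, -0.60 for Mrpl15, -0.60 for Mrps5 and -0.58 for Mrps30. No member was called in the other direction by limma, edgeR or DESeq2 at these thresholds. By limma 1 was higher at an unadjusted p under 0.05, and by DESeq2 1 on the adjusted p alone. The count was 22 to 26 when a replicate number was left out, 26 by edgeR and 24 by DESeq2.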

How the results depend on the processing

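Of the counts and changes recomputed over whole comparisons, 431 kept their direction and stayed within 1.5 times the value given, and 29 did not. Of the values of single members, 315 kept their call, 12 lost it and none changed sign. Depth limits little, since no member had fewer than 24 reads. Scaling limits more.

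Under scaling to total reads on genes (shares of all genes under it in parentheses), GCSF pre-treatment had 29 members higher (21.3%) and 0 lower (15.5%), and the GCSF endpoint 0 higher (8.87%) and 35 lower (18.6%). Members lower in GCSF-OHT were then 1 over 8h to 24h (4.56%), 2 over 32h to 72h (7.79%) and 28 over 80h to 136h (16.4%), and 7 at 168h against undifferentiated cells (21.3%). Members higher in IL3-OHT were 17 over 8h to 24h (15.3%), 8 over 32h to 72h (14.8%) and 1 over 80h to 136h (9.70%). In GCSF-OHT against IL3-OHT 1 was lower (12.1%). At IL3-OHT 96h and 144h together 20 calls were higher, in place of 12, and over consecutive steps 20, in place of 11. Change over time held for 63 members in GCSF-OHT (52.6%) and 53 in IL3-OHT (71.1%). The lost calls of single members under this scaling were Mrpl33 at the GCSF endpoint (0.54), Mrpl30 and Mrps6 in pre-treatment (-0.47 and -0.42) and Mrpl23, Mrpl30 and Mrpl45 between the courses (-0.46, -0.49 and -0.48). edgeR called 9 members higher in IL3-OHT over 8h to 24h, 2 higher at the IL3 endpoint and 2 lower in GCSF-OHT over 32h to 72h. The upper-quartile scaling also called 2 lower there. With IL3-OHT 96h and 144h kept, the steps into and out of those times were added, giving 34 higher and 15 lower step calls. The causes of the other differences were not tested.

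Leaving out a replicate number in all groups, pre-treatment had 8 to 10 members higher and 1 to 2 lower (1 without replicate 2). The GCSF endpoint had 14 to 17 lower and the interaction 22 to 26 lower. The IL3 endpoint had 1 to 2 higher (2 without replicate 3) and 2 to 3 lower. IL3-OHT over 8h to 24h had 6 to 7 higher, in place of 5, and over 80h to 136h 2, in place of 3. At 168h in GCSF-OHT against undifferentiated cells 10 were lower each time, in place of 11. GCSF-OHT over 8h to 24h had 0 to 1 lower (1 without replicate 1) and over 32h to 72h 0 to 2 (0 without replicate 2 and 2 without replicate 1). Calls at 120h ranged from 0 to 1 higher and step calls from 8 to 10 lower (1 and 10 without replicate 2). Mrpl12 in pre-treatment was lost without replicate 3 (0.55), Mrps6 without replicate 2 (-0.54) and Mrpl23 between the courses without replicate 1 (-0.54). Mrpl23 was also lost by edgeR (-0.57), with a pseudocount of 5 (-0.56) and summed with its pseudogene (-0.47).

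Same-numbered libraries did not deviate together, with correlations of deviations from the group means of -0.041 to 0.031 over 9 pairs, and 5 of 12 libraries correlated best with their own number. The replicate block gave 8 higher and 2 lower members in pre-treatment and 1 higher and 17 lower at the GCSF endpoint, and it changed no call of a named member.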

Other observations

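The mRNAs that the mitoribosome translates can be set beside its own genes as a share of reads. The 13 mitochondrially encoded mRNAs took 1.5% to 1.65% of the reads on genes in the 3 undifferentiated libraries and 1.94% to 2.16% in the 3 GCSF 0h libraries, which did not overlap. Total normalized counts were lower in GCSF 0h (median 19488259) than in undifferentiated cells (23264781). A gene with an even normalized count therefore also gains in share between these groups. Over the courses their share ran from 0.826% to 2.27% in IL3-OHT and from 0.993% to 2.50% in GCSF-OHT. Over the same libraries the 77 members together took 0.185% to 0.303% in IL3-OHT and 0.180% to 0.289% in GCSF-OHT.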
